A study of Homo sapiens with 16 samples.

Results

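The RNAs of 10 genes that place, remove or read N6-methyladenosine (m6A) were followed in the cytoplasm of human U2OS cells. They were chosen by function, with earlier results of these data known, and all 10 are among the 60107 genes counted in each library. METTL3, METTL14, WTAP, VIRMA and ZC3H13 are writers, ALKBH5 and FTO are erasers, and YTHDF1, YTHDF2 and YTHDF3 are cytoplasmic readers.

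m6A is a methyl group on the base of internal adenosines and is the most common internal mark of mRNA. A nuclear complex places it while the RNA is being made, with S-adenosylmethionine as the methyl donor that cap methyltransferases also use. Demethylases of the AlkB family can take it off. In the cytoplasm, proteins with a YTH domain bind it, and their best known effect is faster decay of the marked RNA.

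U2OS is an osteosarcoma line, and U2OS-TR cells carry the tetracycline repressor. The study asked how RNA levels respond when methylation of the cap in the cytoplasm is blocked. It used ΔN-RNMT, a catalytically inactive, N-terminally shortened form of the cap methyltransferase RNMT, driven by a CMV promoter with tetracycline operators. The libraries hold 3′ end tags (QuantSeq REV) of cytoplasmic RNA collected after removal of nuclei, 16 in all.

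The uninduced group had 5 libraries of U2OS-TR/ΔN-RNMT cells without doxycycline. The induced group had 5 libraries of the same cells given 1 μg/ml doxycycline for 24 h after 48 h of growth. The parental groups were U2OS-TR cells with no transgene, 3 libraries untreated and 3 given doxycycline at the same dose and for the same time. The protocol in the labels lists doxycycline for every library, whereas the study's methods give it for the induced or treated ones, and the latter was used. All 4 groups carry the repressor, and the ΔN-RNMT cells are 1 clonal line picked for the highest transgene expression. The transgene line was read as 75-base pairs on a NextSeq 500 and the parental line as 150-base pairs on a MiSeq, so line, instrument, read length and depth cannot be told apart.

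The uninduced libraries had from 18991617 to 23251834 gene counts each and the induced ones from 12527183 to 20781875, a range that lay lower. The parental line had from 1473286 to 3214808 per library, and the part of depth in the results was not tested. RNMT checked the labels: it was at 55.6 to 112 CPM in uninduced and at 266 to 458 CPM in induced libraries, which did not overlap (CPM are counts per mega-count of a library, here scaled with edgeR's TMM factors). Of the osteoblast-lineage markers, RUNX2, COL1A1 and SPARC were present. In contrast, COL1A2 had at most 1 count in any library, and SP7 and BGLAP had 0 counts in every library of both lines. IBSP had 0 counts in the transgene line, and ALPL stayed at or below 1.21 CPM. The markers of blood and endothelium (PTPRC, CD3E, CD68, PECAM1, VWF, CDH5) stayed at or below 1.34 CPM in the transgene line. Of the epithelial markers, EPCAM was at 4.89 to 14.3 CPM there, CDH1 at or below 2.67 CPM and KRT5 at 0 counts. Of the mesenchymal ones, VIM rose by 1.44 on the log2 scale (edgeR adjusted P = 0.0182) and FN1 and CDH2 did not pass, and RUNX2 rose by 1.16 (0.0175). Among nuclear-retained RNAs of the transgene line, NEAT1 fell by 0.44 on the log2 scale (0.0410) and MALAT1 was at 0.03 (0.927). Their parental values are given with those of the parental line. The part of these shifts in the results below was not tested. Uninduced replicate 5 and induced replicate 2 stood apart from their groups on the first principal component of all tested genes, which held 78.9% of the variance. The other uninduced libraries scored between -1.53 and -0.68 and the other induced ones between 0.86 and 1.07, whereas uninduced replicate 5 scored 0.51 and induced replicate 2 scored -0.20. Results that rest on these 2 libraries are given with and without them, a choice made after their values were seen.

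The writers METTL14, WTAP and VIRMA and the eraser ALKBH5 rose in induced cells, FTO and ZC3H13 did not pass the test, and no reader did. In numbers, 4 of the 10 genes passed edgeR's quasi-likelihood test at a Benjamini-Hochberg adjusted P below 0.05, all of them higher, which is 40.0%. Of all 13038 genes tested, 39.8% passed, 20.0% as higher and 19.8% as lower. The share of the 10 that changed was thus near that of all genes. Their median log2 fold change was 0.31, against 0.04 for all genes tested. By role, 3 of 5 writers rose, with a median of 0.61 and all 5 values above 0. Of the 2 erasers 1 rose, and 0 of 3 readers passed, with all 3 values below 0. Of all 13038 genes tested, 6795 lay above 0 and 6243 below. With scaling by total counts YTHDF1 and YTHDF3 lay above 0, at 0.11 and 0.18. None of the readers passed at an unadjusted P below 0.05 either, and DESeq2 called none of them. In bulk RNA, fewer cells of a kind and less RNA per cell cannot be told apart.

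**Figure D1:**
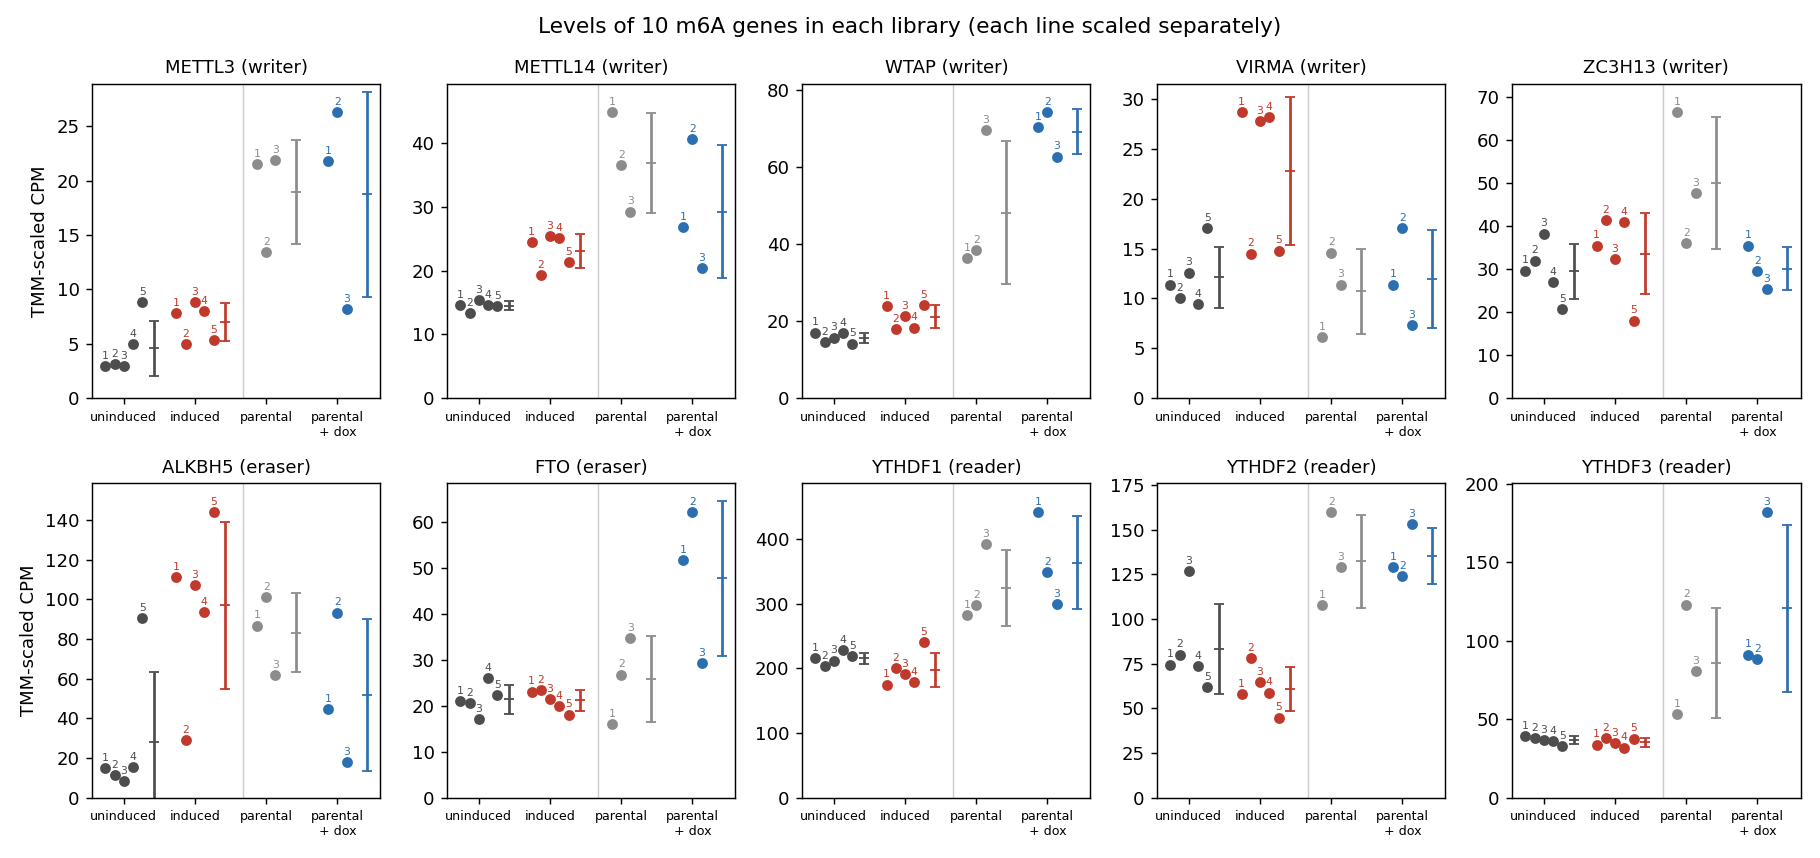
Each panel shows 1 gene, with the level in TMM-scaled CPM on the vertical axis and the 4 groups on the horizontal axis. Points are libraries numbered by replicate, and the bar to the right of each group is its mean ± SD, cut off at the axis limits where it runs past them. The lines were scaled separately, so levels are compared within a line. METTL14 and WTAP show 5 induced libraries above all 5 uninduced ones, while ALKBH5 shows uninduced replicate 5 at 90.5 CPM among the induced libraries and induced replicate 2 at 29.0.

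The panels of levels by library show 3 patterns. They are a shift of every library (METTL14, WTAP) and a called shift that 1 or 2 libraries of a group did not share (ALKBH5, VIRMA). The last is groups with overlapping ranges and no call (METTL3, FTO, YTHDF1, YTHDF3, ZC3H13, YTHDF2).

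The starts of the genes were read from RefSeq (GRCh38.p14), as windows of 250 bases before to 50 bases after a start. These matched 10 promoters of 8 of the genes. VIRMA and YTHDF3 had no entry and were not searched. WTAP and YTHDF2 have a pair of starts each. Of 4 promoter motifs searched, all on both strands, CCAAT stood in 6 of the 10 promoters (34.6% of all promoters of this length), GGGCGG, the GC box, in 6 (45% of all) and TATAAA in 1 (11.5% of all). Among the 8 genes searched, the ETS core stood only in METTL3, METTL14 and ZC3H13. It stood in neither promoter of WTAP, which acts in the same complex, and the promoter of VIRMA, another writer, was not searched. Stretches of 30 bases around it are shown, chosen after the sequences were seen. Capitals mark CCGGAA or its reverse complement TTCCGG, the core that ETS-family factors are known to bind, searched on both strands. It occurs in 3 of the 10 promoters and in 17.2% of all 35116 promoters of the same length. METTL14 and METTL3 have it at 3 places each, METTL14 at 35, 15 and 4 bases before the start base.
METTL3, chr14:21511362-21511391, minus strand: gaaagcgcgacaCCGGAAatgacttttctg
METTL14, chr4:118685345-118685374, plus strand: aggaggcgggacTTCCGGgccaagcgagcc
METTL14, chr4:118685376-118685405, plus strand: attccggccgcgCCGGAAgtctctactgag
ZC3H13, chr13:46052763-46052792, minus strand: ctaatctgacggCCGGAAgctgcctgggtc
The study examined RNAs that begin with a 5′ terminal oligopyrimidine tract, a C at the cap followed by pyrimidines. For that reason the start bases were searched for a C followed by 4 pyrimidines, which 4.07% of all 35116 starts have. It stands at 1 of the starts of WTAP and 1 of YTHDF2, where the capital marks the start base.
WTAP, chr6:159727491-159727520, plus strand: gcggggcctggtttcCtccctcagcgccat
YTHDF2, chr1:28736609-28736638, plus strand: gaagccagagctagtCtttccaggtgttag
A match is a description of the letters and not a bound site, and which start these cells use was not measured. Of the genes in the first set METTL14 passed the test of induction and METTL3 and ZC3H13 did not, and in the second WTAP passed and YTHDF2 did not.

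METTL3 is the catalytic subunit of the writer and lies on chromosome 14 from 21498133 to 21511342 on the minus strand (GRCh38, GENCODE 44, as for the positions below). Its levels were 2.95, 3.10, 2.95, 4.94 and 8.85 CPM in uninduced replicates 1 to 5, from 53 to 204 counts. In induced replicates 1 to 5 they were 7.83, 4.94, 8.82, 7.97 and 5.34 CPM, from 90 to 173 counts. The groups overlapped: uninduced replicate 5 was higher than every induced library, and uninduced replicate 4 and induced replicate 2 were both at 4.94 CPM. The change of 0.61 on the log2 scale (SE 0.33, edgeR adjusted P = 0.146) did not pass. Without uninduced replicate 5 it was 0.98 with an edgeR adjusted P of 0.00502, and without both libraries that stood apart it was 1.09 (0.00138). In the other 9 fits that left out 1 library it did not pass, at values down to 0.48, and with 1 surrogate variable it was 0.12.

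The 3′ end of METTL3 lies inside TOX4, which runs on the opposite strand and overlaps it by 1043 bases. TOX4 fell by 0.75 on the log2 scale (SE 0.17, edgeR adjusted P = 0.0175), from 129 ± 21.5 to 77.0 ± 14.2 CPM (SD, n = 5 each). Whether the counting used strand is not given in the sources used here. Without strand, tags inside the overlap cannot be told apart. The counts also hold an entry for ambiguous tags, at 0.0117 to 0.0195 per gene count over the 16 libraries. Whether tags of this pair went there was not tested.

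METTL14 is the partner that holds RNA in the METTL3 dimer and has no catalytic activity of its own. It lies on chromosome 4 from 118685392 to 118715433 on the plus strand and overlaps no other annotated gene. It was at 14.6, 13.4, 15.4, 14.6 and 14.4 CPM in uninduced and at 24.5, 19.3, 25.4, 25.1 and 21.4 CPM in induced replicates 1 to 5. Every induced library lay above every uninduced one, including the 2 that stood apart, and the uninduced SD was 0.695 CPM. Its log2 fold change was 0.68 (SE 0.13, edgeR adjusted P = 0.0175, 95% interval 0.39 to 0.97). Groups that did not overlap in this direction were found for 3.08% of all genes tested. The call held in all 10 fits that left out 1 library, at 0.64 to 0.73. It was lost at 0.20 (adjusted P = 0.209) when offsets for GC content were added, and at 0.66 (0.0654) with 1 surrogate variable.

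WTAP brings the dimer to nuclear speckles. It lies on chromosome 6 from 159725585 to 159756319 on the plus strand, inside the annotated span of SOD2 on the other strand, for which no count was analysed here. WTAP was at 17.0, 14.6, 15.7, 16.8 and 14.1 CPM in uninduced and at 23.8, 17.9, 21.3, 18.3 and 24.2 CPM in induced replicates 1 to 5. The groups did not overlap (3.08% of all genes tested in this direction), but induced replicates 2 and 4 lay within 2 CPM of the highest uninduced library. The log2 fold change was 0.43 (SE 0.14, edgeR adjusted P = 0.0338). It kept its sign in all 20 alternatives, at 0.18 to 0.68, and passed in 7 of them. When 1 library was left out it passed only without uninduced replicate 5 or induced replicate 2, with adjusted P between 0.0188 and 0.0947 over the 10 fits.

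VIRMA is the large scaffold that steers the complex to the 3′ part of mRNA, and its gene lies on chromosome 8. The gene overlaps 1 annotated long non-coding RNA gene on the other strand. VIRMA was measured in all 10 libraries of the transgene line. It was at 11.4, 10.0, 12.6, 9.44 and 17.1 CPM in uninduced replicates 1 to 5. Induced replicates 1 to 5 were at 28.7, 14.5, 27.8, 28.2 and 14.8 CPM. Induced replicates 1, 3 and 4 thus lay well above every uninduced library, whereas induced replicates 2 and 5 lay below uninduced replicate 5. Induction thus gave a log2 fold change of 0.91 (SE 0.25, edgeR adjusted P = 0.0212). The value was 1.19 (3.8e-04) without the 2 libraries that stood apart and 0.51, not called, with GC offsets. Of the 10 fits that left out 1 library the call was lost in 5, with adjusted P up to 0.0557.

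ZC3H13 helps keep the complex in the nucleus. With CPB2-AS1, a long non-coding RNA gene, overlapping it on the other strand, ZC3H13 lies on chromosome 13 from 45954465 to 46052759 on the minus strand. It was at 29.5 ± 6.44 CPM in uninduced and 33.6 ± 9.48 CPM in induced libraries (SD, n = 5 each). Replicate 5 was the lowest of both groups, at 20.7 and 18.0 CPM. A log2 fold change of 0.19 (SE 0.24, edgeR adjusted P = 0.524, 95% interval -0.33 to 0.70) did not pass. It had the opposite sign, at -0.18, with GC offsets.

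ALKBH5, a nuclear demethylase of m6A, had the largest change of the 10 genes and also the widest spread. It lies on chromosome 17 from 18183078 to 18209954 on the plus strand and overlaps 1 annotated long non-coding RNA gene on the other strand. In uninduced replicates 1 to 5 it was at 15.0, 11.3, 8.23, 15.6 and 90.5 CPM, from 148 to 2087 counts. In induced replicates 1 to 5 it was at 111, 29.0, 107, 93.7 and 144 CPM, from 617 to 2423 counts. Uninduced replicate 5 thus held about as much ALKBH5 as induced replicate 4, and induced replicate 2 held more than 4 of the uninduced libraries but less than the other 4 induced ones. The log2 fold change was 1.78, or 3.44-fold (SE 0.65, edgeR adjusted P = 0.0481, 95% interval 0.35 to 3.21), at the 96.5th percentile of all genes tested. Without uninduced replicate 5 it was 2.93 (4.1e-04), without induced replicate 2 it was 2.01, and without both it was 3.17 (6.8e-07). Leaving out any other library gave values from 1.55 to 1.79 that did not pass, with adjusted P up to 0.101.

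FTO, the eraser first found, which also acts on the methylated adenosine next to the cap, did not show such a shift. It lies on chromosome 16 from 53701692 to 54158512 on the plus strand. It overlaps 6 annotated genes, of which the protein-coding one, RPGRIP1L, lies across its 5′ part on the other strand. FTO was at 21.1, 20.6, 17.2, 26.0 and 22.3 CPM in uninduced and at 23.1, 23.5, 21.4, 20.0 and 18.1 CPM in induced replicates 1 to 5. The 5 induced libraries lay within the range of the uninduced ones. The log2 fold change was -0.01 (SE 0.15, edgeR adjusted P = 0.941), and its 95% interval of -0.34 to 0.31 bounds the change in either direction.

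YTHDF2 recruits the CCR4-NOT deadenylase to m6A-marked RNA and is the reader most tied to decay. It lies on chromosome 1 from 28736621 to 28769775 on the plus strand and overlaps 1 annotated long non-coding RNA gene on the other strand. It was at 74.6, 80.2, 127, 73.7 and 62.1 CPM in uninduced and at 57.9, 78.2, 64.6, 58.9 and 44.9 CPM in induced replicates 1 to 5. Induced replicates 1, 4 and 5 were below every uninduced library, whereas replicates 2 and 3 were inside their range. The log2 fold change was -0.46 (SE 0.21, edgeR adjusted P = 0.0997, 95% interval -0.92 to 0.01) and did not pass. Without uninduced replicate 5 it was -0.56 (0.0310), and without both libraries that stood apart it was -0.65 (0.00993). Without uninduced replicate 3, the highest library, it was -0.27 (0.209), and with 1 surrogate variable it was -0.07, neither of them called.

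YTHDF1, known for a proposed role in translation of marked RNA, lies on chromosome 20 from 63195429 to 63216139 on the minus strand. It was at 216 ± 9.19 CPM in uninduced and at 197 ± 26.2 CPM in induced libraries (SD, n = 5 each). Induced replicates 1 to 4, at 175, 201, 191 and 179 CPM, lay below every uninduced library, of which the lowest was at 204, whereas induced replicate 5, at 241 CPM, lay above them all. The log2 fold change of -0.13 (SE 0.13, edgeR adjusted P = 0.444, 95% interval -0.42 to 0.16) did not pass. YTHDF3, thought to work with the other two, was at 36.7 ± 2.47 in uninduced and at 35.2 ± 2.61 CPM in induced libraries (SD, n = 5 each). Its value of -0.06 on the log2 scale (SE 0.12, edgeR adjusted P = 0.722, 95% interval -0.33 to 0.22) did not pass either. With GC offsets YTHDF3 was called lower, at -0.51 with an adjusted P of 0.0436.

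**Figure D2:**
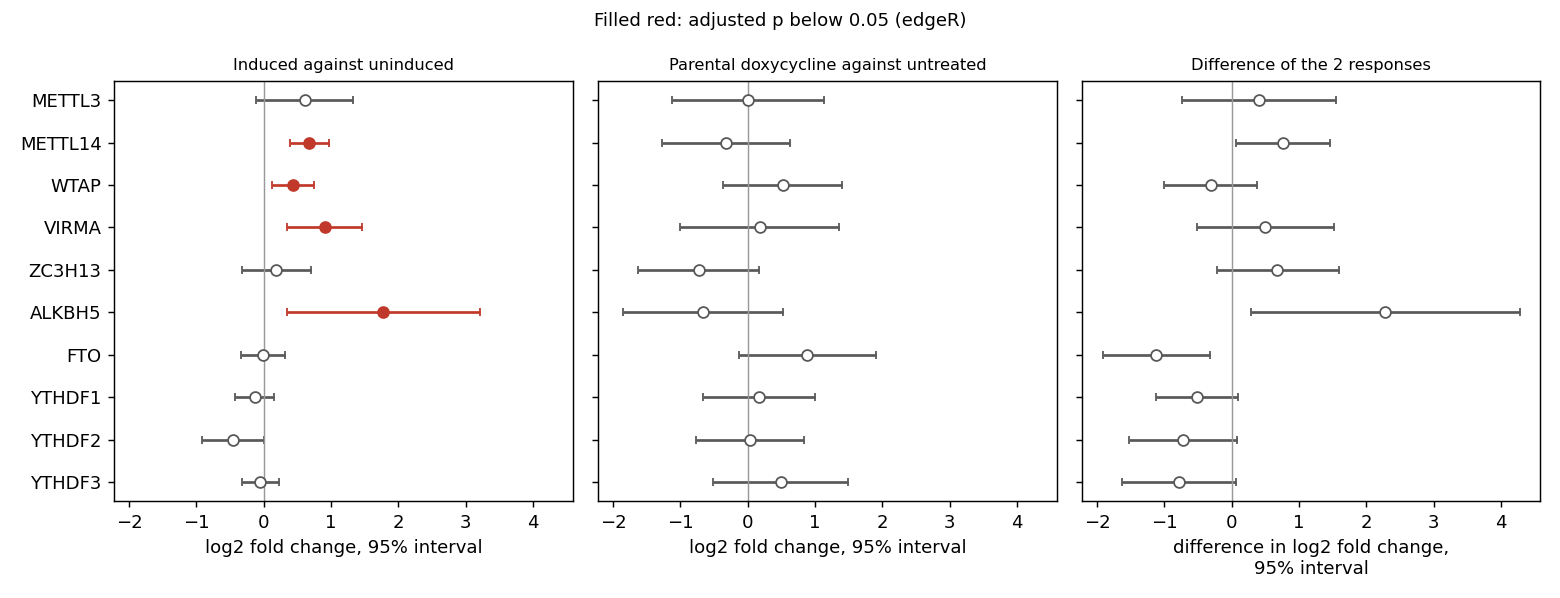
Points are log2 fold changes of the 10 genes with 95% intervals in the transgene line (left) and the parental line (middle), and the difference between these responses (right). Filled red points have an edgeR adjusted P below 0.05. In the left panel the 4 called genes (METTL14, WTAP, VIRMA, ALKBH5) lie right of 0 with their whole interval. The parental intervals are wider and all cross 0, and no gene is called in the middle or right panel.

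In the parental line, the control for doxycycline without the transgene, none of the 10 genes passed edgeR's test. There 0 of 9124 genes tested passed, or 0%, with 2.93% at an unadjusted P below 0.05, and none of the 10 was below 0.05 unadjusted. DESeq2 called none of the 10 either. Counts were lower, from 9 to 1309 per library for these genes, and the groups had 3 libraries each. The 95% intervals of the 10 genes reached from -1.85 for ALKBH5 to 1.90 for FTO. A missing call there thus does not show that doxycycline had no effect. The 95% interval of the log2 change for WTAP ran from -0.36 to 1.4, which holds both 0 and the 0.43 of the transgene line. That for METTL14 ran from -1.27 to 0.63, which holds 0 and ends below the 0.68 of the transgene line. It overlaps the transgene-line interval of 0.39 to 0.97, and the difference of METTL14 between the lines did not pass edgeR's test (0.76, adjusted P = 0.156).

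ZC3H13 was the only one of the 10 whose parental groups did not overlap. It was at 66.4, 36.0 and 47.6 CPM untreated and at 35.4, 29.5 and 25.3 CPM with doxycycline, a log2 fold change of -0.73 (SE 0.41, edgeR adjusted P = 0.997). Groups that do not overlap, in either direction, were found for 9.52% of all genes tested there. FTO was at 25.8 ± 9.41 CPM untreated and at 47.8 ± 16.8 CPM with doxycycline (SD, n = 3 each), where replicate 3, at 29.3 CPM, lay inside the untreated range (log2 fold change 0.88, SE 0.46, edgeR adjusted P = 0.997). ALKBH5 was at 86.7, 101 and 61.7 CPM untreated and at 44.6, 93.3 and 17.9 CPM with doxycycline (-0.66, SE 0.54, adjusted P = 0.997), a value below 0, whereas that of the transgene line was above 0. Both erasers had groups that overlapped.

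The other parental values lay between -0.32 for METTL14 and 0.52 for WTAP, with METTL3 at 0.00, VIRMA at 0.18, YTHDF1 at 0.17, YTHDF2 at 0.03 and YTHDF3 at 0.49. Mitochondrial RNA took 1.76 to 9.38% of the parental counts and 0.854 to 1.52% of those of the transgene line. Tags that fell in no counted gene were at 1.11 or more per gene count in every parental library. In the transgene line they were at or below 0.106 per gene count. Of the nuclear-retained RNAs, MALAT1 went from 745 ± 513 CPM untreated to 125 ± 4.39 CPM with doxycycline (SD, n = 3 each). That is a log2 fold change of -2.57 (edgeR adjusted P = 0.997, unadjusted 5.8e-04). Its groups did not overlap, as was found in either direction for 9.52% of all genes tested there. NEAT1 was at -0.50 (0.997). The part of mitochondrial RNA, of tags in no counted gene and of nuclear-retained RNA in the parental values was not tested.

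Whether a gene responded differently in the 2 lines was tested over all 16 libraries. None of the 10 genes passed edgeR's interaction test, in which 2.98% of 12265 genes did. The nuclear-retained MALAT1 was among those that passed, at 2.37 (adjusted P = 0.0405), and NEAT1 was at -0.17 (0.848). At an unadjusted P below 0.05 stood 3 of the 10 (METTL14, ALKBH5 and FTO), near the 26.1% of all genes tested. This fit scales all 16 libraries together, so its differences are not those of the values from the separate fits. The difference of the log2 fold changes was 0.76 for METTL14 (SE 0.33, adjusted P = 0.156). It was 2.28 for ALKBH5 (SE 0.95, adjusted P = 0.143) and -1.12 for FTO (SE 0.38, adjusted P = 0.0885). DESeq2 called FTO, at -1.04 with an adjusted P of 0.0409, and edgeR called METTL14 when libraries were scaled by total counts, at 1.34 (0.0496). The rises of WTAP and VIRMA in the transgene line were not shown to differ from the parental values, with differences of -0.31 (SE 0.33) and 0.50 (SE 0.48, 95% interval -0.52 to 1.52). The readers all had differences below 0, from -0.79 to -0.51, and none passed. Of all 12265 genes tested, 6580 had differences below 0.

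Ratios of 2 genes inside a library do not depend on how the library is scaled. For 7 ratios, the log2 ratio was compared between the groups with a two-sided exact permutation test over the 252 splits of the 10 transgene-line libraries. None passed after adjustment over the 7, and 2 had an unadjusted P below 0.05. ALKBH5 over FTO, the balance of the erasers, went from -0.22 ± 1.27 to 2.02 ± 1.01 (SD, n = 5 each), a rise of 2.24 with an exact P of 0.0159 (adjusted 0.111). Uninduced replicate 5, at 2.01, lay among the induced libraries, and induced replicate 2, at 0.30, was the lowest of its group. YTHDF3 over YTHDF2 differed by 0.38 (exact P = 0.0476, adjusted 0.167).

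The 3 writer ratios moved less than ALKBH5 over FTO. METTL3 over METTL14 was at -1.78 ± 0.69 in uninduced and -1.74 ± 0.21 in induced libraries (SD, n = 5 each, exact P = 0.921). VIRMA over WTAP differed by 0.44 (exact P = 0.198) and ZC3H13 over WTAP by -0.27 (exact P = 0.437). YTHDF1 over YTHDF3 had the smallest spread of the 7, at 2.56 ± 0.14 and 2.48 ± 0.12 (exact P = 0.333). In the parental line, ALKBH5 over FTO went the other way, from 1.69 ± 0.80 to -0.11 ± 0.64 (SD, n = 3 each), and ZC3H13 over WTAP from 0.08 ± 0.71 to -1.19 ± 0.18, both with groups that did not overlap. Their exact P of 0.10 is the smallest that 3 against 3 libraries allow.

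**Figure D3:**
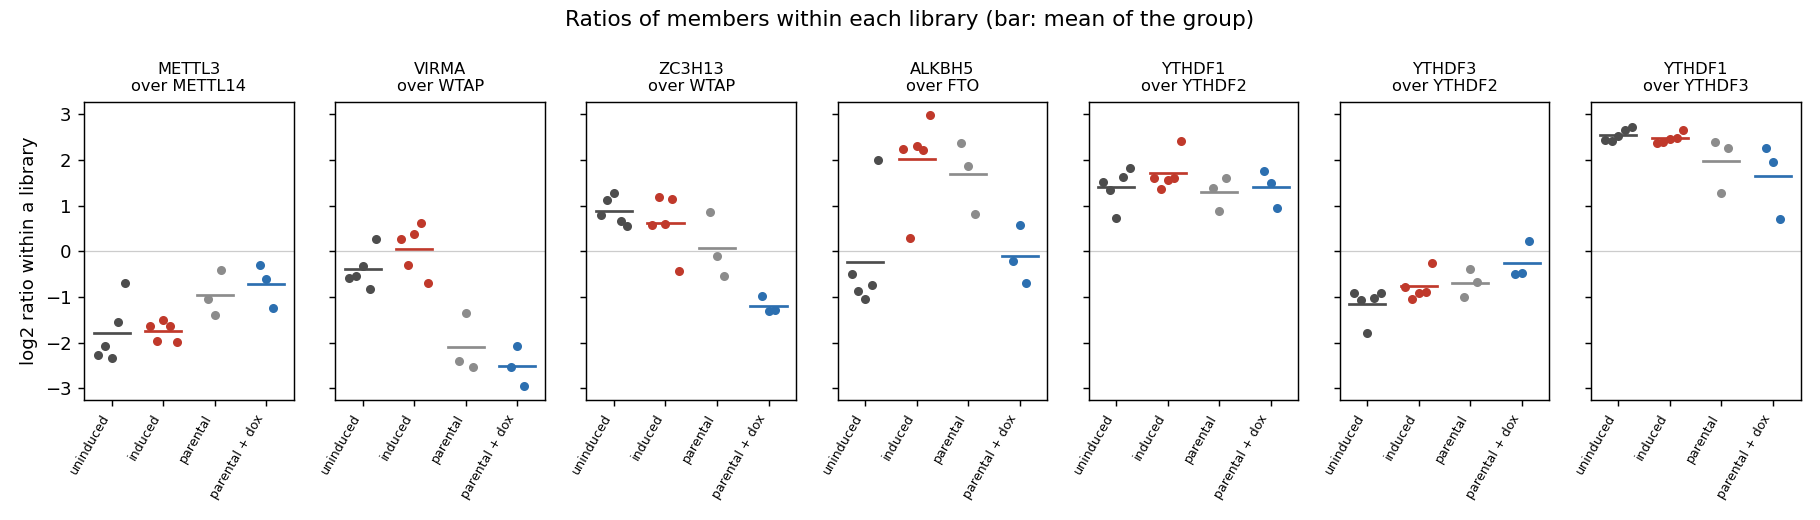
Each panel shows the log2 ratio of 2 genes inside a library for the 4 groups, with points for libraries and a bar for the group mean. ALKBH5 over FTO spans from -1.05 to 2.98 in the transgene line, with 1 uninduced library at 2.01. YTHDF1 over YTHDF3 stays between 2.37 and 2.73 in all 10 transgene-line libraries.

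In the plot of ratios the shift of ALKBH5 over FTO is the widest of the 7 in the transgene line, and the parental means of that ratio stand in the reverse order.

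The choice of fit mattered more to some genes than to others. METTL14 was called in 17 of 20 alternative fits, VIRMA in 12, ALKBH5 in 10, WTAP in 7, YTHDF2 in 3, METTL3 in 2 and YTHDF3 in 1, and ZC3H13, FTO and YTHDF1 in none. Offsets for GC content lowered most the genes whose transcripts are poor in G and C. METTL14 (38.3% GC) went from 0.68 to 0.20, VIRMA (40.4%) from 0.91 to 0.51, ZC3H13 (41.6%) from 0.19 to -0.18 and YTHDF3 (38.4%) from -0.06 to -0.51. ALKBH5 (57.6% GC) instead went from 1.78 to 2.00, but its call was lost (adjusted P = 0.0549). Without the 2 libraries that stood apart, 6 of the 10 genes passed, 5 higher and YTHDF2 lower, beside 8329 of 12956 genes in all. With scaling by total counts the median over all genes moved from 0.04 to 0.28 on the log2 scale, and FTO, YTHDF1 and YTHDF3 had small values above 0. Changes are therefore given relative to the TMM reference.

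**Figure D4:**
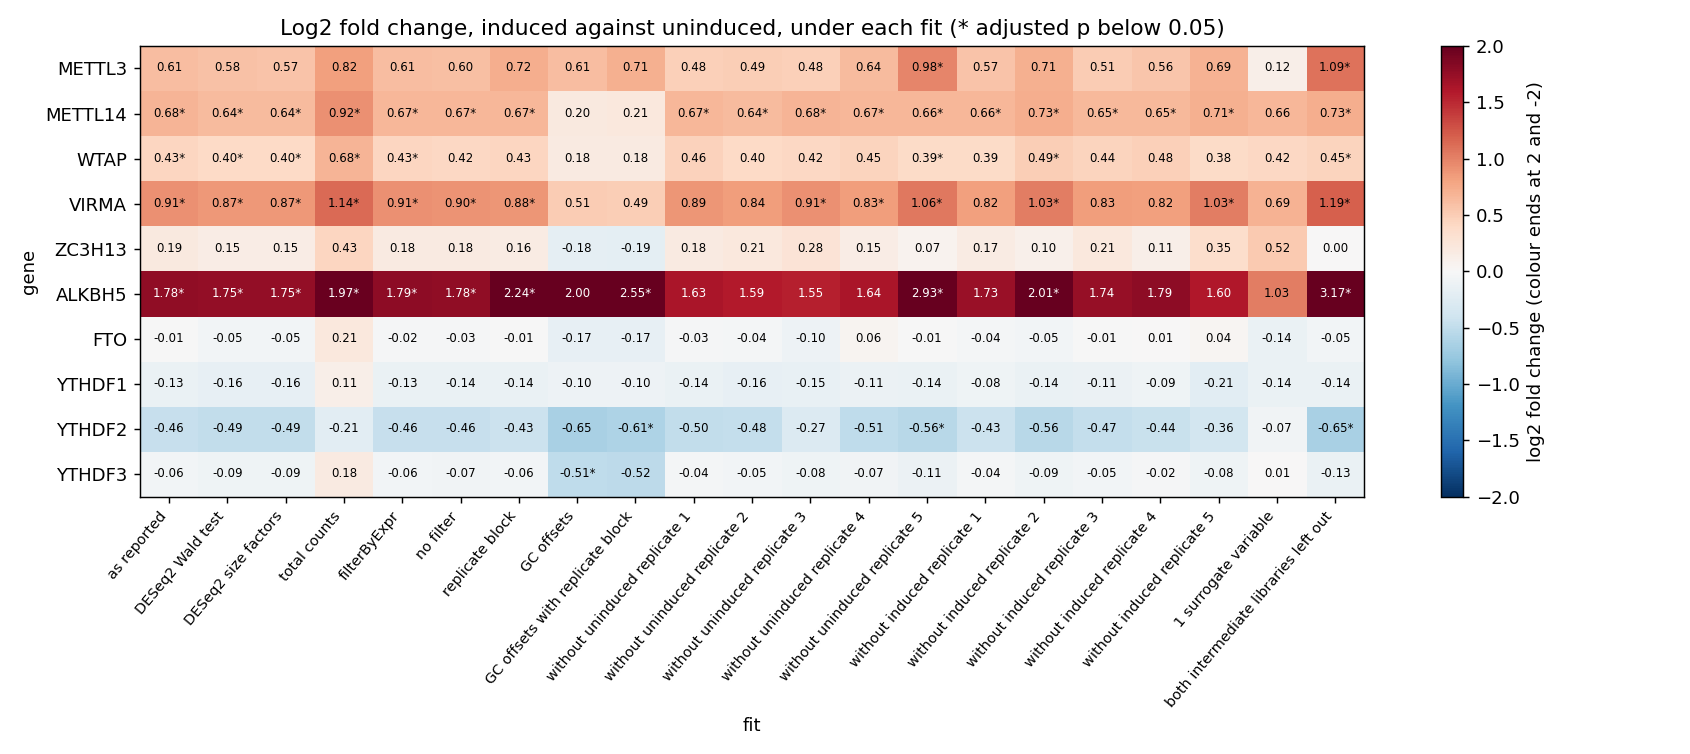
Cells give the log2 fold change, induced against uninduced, of each gene (rows) under each fit (columns), coloured from blue (below 0) to red (above 0), with an asterisk where the adjusted P is below 0.05. ALKBH5 and the writers other than ZC3H13 are above 0 in every column and YTHDF2 is below 0 in every column. The columns without uninduced replicate 5 and with both intermediate libraries left out hold the most asterisks, 6 each.

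The grid of fits shows that leaving out uninduced replicate 5 added METTL3 and YTHDF2 to the 4 genes called, and that with 1 surrogate variable none was called.

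The other genes of m6A biology were a list of 33, of which 32 were tested in the transgene line. Of these 11 rose and 3 fell, which is 43.8% (all genes tested, 39.8%), with a median log2 fold change of 0.39. IGF2BP3, a reader of the IGF2BP family, had 8 to 20 counts per library and was not tested. Without the 2 libraries that stood apart, 16 rose and 6 fell, beside 8329 of 12956 genes in all. With GC offsets 8 were called, beside 3476 of 13038 genes in all. With 1 library left out between 6 and 20 were called, and with 1 surrogate variable 0. The counts over all genes in these last fits are given in the closing section.

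Among 9 further writer subunits and methyltransferases, 4 rose and none fell, which is 44.4% called beside 39.8% of all genes tested. RBM15, an RNA-binding subunit that guides the m6A complex, went from 6.03 ± 1.20 to 9.76 ± 1.04 CPM (SD, n = 5 each; log2 fold change 0.69, edgeR adjusted P = 0.0177). Its groups did not overlap, as was found in this direction for 3.08% of all genes tested. CBLL1, the HAKAI subunit of the same complex, rose by 1.07 (0.0216). METTL5 and ZCCHC4, which place m6A on ribosomal RNA, rose by 1.03 (0.0417) and 1.56 (0.0175). TRMT112, the partner that METTL5 needs, was at 0.12 (0.595), RBM15B at 0.13 (0.537) and METTL16 at -0.14 (0.704). PCIF1, which methylates the adenosine next to the cap, was at -0.27 (0.258).

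Among the other readers, 3 of 10 rose and 1 fell, which is 40.0% called beside 39.8% of all genes tested. YTHDC2, a YTH-domain helicase, rose by 1.22 (edgeR adjusted P = 0.0329), RBMX, a nuclear reader of m6A-dependent structure, by 0.74 (0.0177) and ELAVL1, a stabilising RNA-binding protein, by 0.88 (0.0335). IGF2BP2, which stabilises marked RNAs, fell by 0.70 on the log2 scale (0.0247). YTHDC1, the nuclear YTH reader, was at -0.65 (0.0844). The partners of YTHDF2 in decay did not move together: RIDA, which bridges it to an endonuclease, rose by 1.91 (0.0382), from 1.71 ± 2.09 to 6.57 ± 2.44 CPM. CNOT1, the scaffold of the CCR4-NOT complex, fell by 0.53 on the log2 scale (0.0443), and UPF1 was at -0.21 (0.393). That is 2 of 3 partners called, or 66.7%, beside 39.8% of all genes tested.

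In the supply of S-adenosylmethionine, MAT2B, the regulatory subunit of its synthetase, rose by 1.34 (edgeR adjusted P = 0.0177) while the catalytic MAT2A was at -0.09 (0.765). AHCY, which clears the product of methyl transfer, was at 1.42 (0.0675) and ranged from 25.0 to 223 CPM in uninduced libraries. Thus 1 of these 3 genes was called, or 33.3%, beside 39.8% of all genes tested. Among 7 AlkB paralogs of the erasers, 3 were called, which is 42.9% beside 39.8% of all genes tested. ALKBH1 rose by 1.63 (0.0177) and ALKBH8, a tRNA methyltransferase, by 0.79 (0.0175). The groups of ALKBH8 did not overlap, as was found in this direction for 3.08% of all genes tested. ALKBH4 fell by 0.76 on the log2 scale (0.0226). ALKBH2, ALKBH3, ALKBH6 and ALKBH7 did not pass. In the parental line 0 of 26 of the other m6A genes passed edgeR's test, beside 0% of all genes tested, and DESeq2 called 0. Of the 26, 1 was at an unadjusted P below 0.05, beside 2.93% of all genes tested there. In the test of the difference 0 of 30 passed, beside 2.98% of all genes tested. There 9 were at an unadjusted P below 0.05 (26.1% of all genes tested). DESeq2 called 4 of the 30 and 1478 genes in all.

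**Figure D5:**
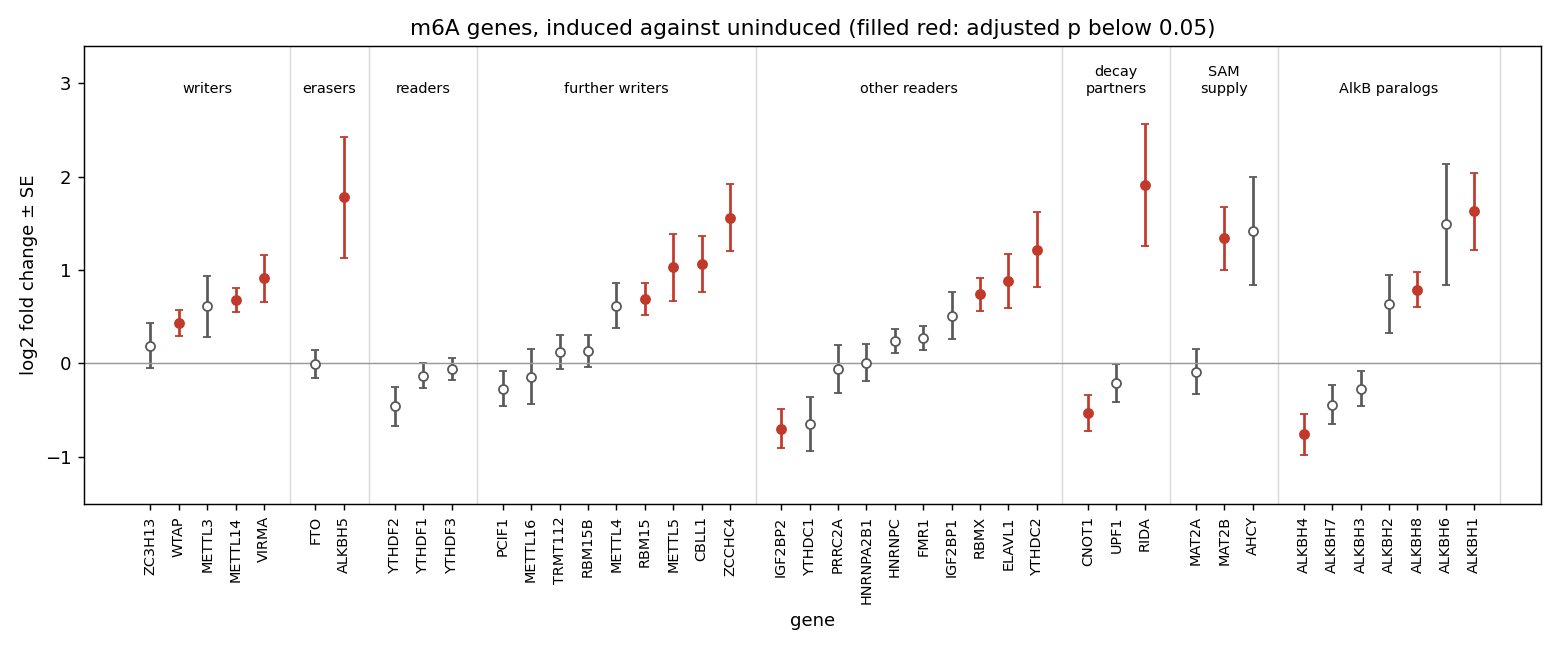
Points are log2 fold changes ± SE, induced against uninduced, for the 10 genes and the 32 tested genes of the further lists, ordered within each list. Filled red points have an edgeR adjusted P below 0.05. Called genes above 0 appear in the writers, ALKBH5 among the erasers, and in each further list, and the 3 called genes below 0 are IGF2BP2, CNOT1 and ALKBH4.

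The plot of the m6A genes by list shows that the called genes above 0 were not limited to the writer complex and that the YTHDF readers were among the values nearest to or below 0.

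For METTL3, ALKBH5 and YTHDF2, the 3 tested genes with the most similar profile over the 10 transgene-line libraries were found by the root mean square (RMS) difference of centred log2 CPM. For ALKBH5 these were MGST3, a membrane glutathione transferase, at an RMS of 0.12, SUSD6 at 0.15 and INTS9, an Integrator subunit, at 0.17. The ALKBH5 profile itself had an SD of 1.51 on the same scale, and the log2 fold changes of the 3 genes were 1.69, 1.96 and 1.72. For METTL3 they were KLF7, UBE2K and RPL34, each at 0.17, and for YTHDF2 they were EGLN2 at 0.10 and METTL15 and C2orf69 at 0.11 each. The likeness is a description over libraries that share the axis on which uninduced replicate 5 and induced replicate 2 stood apart.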

How the data were processed

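QuantSeq REV 3′ tag libraries of cytoplasmic RNA were analysed from 10 libraries of the U2OS-TR/ΔN-RNMT line and from 6 of parental U2OS-TR cells. Tags were counted by the authors with Lexogen's QuantSeq REV pipeline (GRCh38), and the deposited tables hold these raw counts for each Ensembl gene. The aligner, the annotation release and the use of strand are not given in the sources used here. For each gene count, 0.561 to 1.44 tags aligned to several places and were left out. Symbols and positions came from GENCODE 44, and promoter sequences from RefSeq.

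Tests covered genes with a base mean above 20 and were run in R 4.3.3 with edgeR 4.0.16 (TMM, quasi-likelihood test, Benjamini-Hochberg over all genes tested, calls at an adjusted P below 0.05), each line alone and in a 16-library interaction fit. Because the study used DESeq2 within each line, DESeq2 1.42.0 was an alternative, as were its size factors, total counts, filterByExpr, leaving out the filter, blocking on the replicate number, GC offsets (lowess span 0.5), 1 surrogate variable (sva 3.50.0) and leaving out each library. Log2 CPM used a prior count of 2. Scripts were tested on simulated counts. The common biological coefficient of variation of the transgene line was 0.320, that of the parental line 0.444. Intervals cover 95%.

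The 10 genes and all lists were chosen with earlier results of these data known. Named genes were the 10, RNMT, each other m6A gene that passed a test, and for METTL3, ALKBH5 and YTHDF2 the 3 nearest profiles. TOX4, RPGRIP1L, the other m6A genes that did not pass and the cell type markers were named outside this rule. Groups came from the labels. The closest pair of replicates still differed by a chi-square of 4.55 per degree of freedom, so none was counted as a duplicate. The methods speak of biological replicates, but nothing says which libraries were grown side by side. The 3′ tags are counted once per RNA end and were not divided by length, so no level of a gene was ranked against that of another.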

Additional observations from a re-analysis of the deposited data

Results flagged for a closer look

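In a check of the highest and lowest library of each gene in 20 groups of 5 libraries, where chance marks about 1 group in 20, only ALKBH5 was marked, in both groups. Uninduced replicate 5 (90.5 CPM) stood apart from the other 4 uninduced libraries (8.23 to 15.6 CPM) by 0.734 of the group's range on the log2 scale. Induced replicate 2 (29.0 CPM) stood apart from the other 4 induced libraries (93.7 to 144 CPM) by 0.732 of the range. Both shares exceed the limit of Dixon's test for 5 values. Both libraries also stood apart on the first principal component of all genes, and the part of that in the ALKBH5 values was not tested.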

How the results depend on the processing

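Of the 129 counts of calls recomputed under alternatives, 88 stayed within 1.5 times the reported count and 41 did not. Of the 793 values of single genes and ratios, 27 changed sign and 115 lost a call. The cause was not tested where no value is given for it. With the 2 libraries that stood apart left out, 8329 genes in all and 22 other m6A genes were called, and ZC3H13 was at 0.00 on the negative side. With 1 surrogate variable, 1 gene in all, 0 of the 10 and 0 other m6A genes were called, and YTHDF3 was at 0.01. With GC offsets 3476 genes in all, 1 of the 10 and 8 other m6A genes were called, with ZC3H13 at -0.18. Leaving out 1 library gave between 1869 and 7604 calls in all, between 1 and 6 of the 10 and between 6 and 20 other m6A genes, with fewer samples in each fit. FTO then lay between -0.10 and 0.06, and METTL3 over METTL14 between -0.10 and 0.32.

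Scaling by total counts put FTO at 0.21, YTHDF1 at 0.11 and YTHDF3 at 0.18, and in the parental line METTL3 at -0.10 and YTHDF2 at -0.12, where the median of all genes was -0.15 instead of -0.01. In the test of the difference it put WTAP at 0.29 and YTHDF1 at 0.08, called 1 of the 10 and 2 other m6A genes, and moved the median of all genes to 0.49. In that test DESeq2 called 1478 genes, 1 of the 10 and 4 other m6A genes, its size factors in edgeR 236 genes, filterByExpr 3 and no filter 150, against 365. In the parental line DESeq2 called 1 gene and no filter 10, and leaving out 1 library gave 0 to 2. There METTL3 was at -0.01 with GC offsets and between -0.27 and 0.30 with 1 library left out, VIRMA between -0.01 and 0.52 and YTHDF2 between -0.11 and 0.27.

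Libraries with the same replicate number deviated together by a mean correlation of 0.0260 in the transgene line (from -0.373 to 0.625) and -0.0598 in the parental line, and 1 of 5 and 1 of 3 libraries fitted best with their own number, so the numbers were not taken as pairs. With the number as a block 5188 genes in all, 3 of the 10 (without WTAP) and 18 other m6A genes were called, and parental METTL3 was at -0.10. With the block and GC offsets 4055 genes in all and 2 of the 10 were called (ALKBH5 and YTHDF2), ZC3H13 was at -0.19 and parental METTL3 at -0.11.

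The parental line had 3 libraries a group, fewer counts, and more tags outside counted genes for each gene count. The 10 genes had from 9 to 1309 counts per library there, and METTL3 had 53 to 204 in the transgene line.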
